A study of Caenorhabditis elegans with 35 samples.

Results

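The genes described are the major sperm protein (msp), sperm-specific class P (ssp) and spermatogenesis-defective (spe) genes of Caenorhabditis elegans, taken as every probe set whose deposited symbol starts with msp, ssp or spe followed by a number. The rule found 30 of 20806 probe sets, and because spe-9 lies on 2 probe sets with identical values on all 35 arrays, it gave 29 distinct members among 18869 distinct profiles. They are 10 msp genes (msp-32, msp-36, msp-38, msp-50, msp-63, msp-64, msp-74, msp-76, msp-77 and msp-142), 4 ssp genes (ssp-10, ssp-16, ssp-19 and ssp-31) and 15 spe genes (among them spe-4, spe-6, spe-8, spe-9, spe-10, spe-11, spe-12, spe-15, spe-19, spe-26, spe-27, spe-38, spe-39 and spe-41). The study asked whether long life of worms lacking the histone methylation factor wdr-5 is passed to wild-type descendants, and it profiled total RNA of whole L3 larvae grown at 20 degrees. In each of the F5 and F4 generations it held wdr-5/wdr-5 homozygotes (called mutants here), +/+ from wdr-5 (wild type at the gene, with mutant ancestors) and +/+ from +/+ (wild type with no mutant ancestors). Every group had 6 arrays, with 3 for each birth day, except F5 +/+ from wdr-5, which had 5 arrays with 2 of them on birth day 1. The labels name no allele, driver or sex, and do not say whether replicates were separate cultures, so p-values measure only the spread between these samples.

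Major sperm proteins are small cytoskeletal proteins whose filaments move the crawling, tailless sperm of nematodes, and the same proteins, released from sperm, signal to oocytes to resume meiosis and to the sheath cells around them to contract. They are packed in spermatocytes with membranous organelles into fibrous body complexes, which bud off with the spermatids, and spermatids then need activation before they can crawl and fertilize. The spe genes were found as mutants that make defective sperm and act at these steps, while the ssp genes encode small sperm-specific proteins of the same fold as the major sperm proteins. In hermaphrodites sperm are made during the L4 stage, after the L3 stage named in the labels, and before the germline switches to oocytes.

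Values are log2 intensities that the authors had normalized, and a difference of 1 is a doubling of the signal. The wdr-5.1 transcript had levels of 4.32 to 5.17 in F5 mutants and 4.01 to 5.91 in F4 mutants, against 8.37 to 8.78 in F5 +/+ from wdr-5, 8.39 to 8.77 in F4 +/+ from wdr-5, 8.30 to 8.74 in F5 +/+ from +/+ and 8.39 to 8.88 in F4 +/+ from +/+. The birth days had been normalized apart, with a 5th percentile of 4.12 to 4.21 on birth day 2 against 3.04 to 3.23 on birth day 1, so groups were compared within a day or with the day as a term. The yolk gene vit-2, which is a product of the adult intestine, ran between 5.55 and 11.04 over the arrays, so the arrays labelled L3 differed widely in an adult transcript. Arrays of whole larvae cannot tell fewer germ cells of a type from less RNA per cell.

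The sperm genes set some arrays of F5 mutants apart from the others. As a description, the level of each member on an array was set against its median over the arrays of the same day, and the median of these deviations over the 29 members was taken. For the F5 mutants it was 0.85 in replicate 4, 0.80 in replicate 5 and -0.42 in replicate 6 on birth day 2, and 0.90 in replicate 1 and 0 in replicates 2 and 3 on birth day 1. Replicate 6 was the lowest array of its day for 15 of the 29 members, whereas replicate 5 was the highest for 17. The vit-2 level was 10.08, 10.72 and 8.57 log2 in replicates 4, 5 and 6 and 10.77, 8.59 and 7.22 in replicates 1, 2 and 3, so the arrays high in sperm genes were also high in yolk. Results on F5 mutants are therefore given with and without single arrays. The fits used a spread per probe set that all groups shared. On birth day 2 the F5 mutants varied more, at -0.42 to 0.85, than F5 +/+ from +/+, at -0.22 to -0.063. The SE and p given for F5 mutants, over both days and within a day, can therefore understate their own spread.

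By array medians F4 +/+ from +/+ was the highest F4 group on birth day 2 and the lowest on birth day 1. On birth day 2 the F4 mutants lay between -0.15 and 0.086, F4 +/+ from wdr-5 between 0.053 and 0.10 and F4 +/+ from +/+ between 0.26 and 0.35. The mutants and +/+ from wdr-5 thus overlapped that day. All 3 groups were apart on birth day 1, with F4 mutants at 0.75 to 0.92, F4 +/+ from wdr-5 at 0.12 to 0.22 and F4 +/+ from +/+ at -0.61 to -0.074. The wild-type lineages of F5 lay close to each other, at -0.33 to -0.086 in +/+ from wdr-5 and -0.22 to -0.063 in +/+ from +/+ on birth day 2, and at -0.70 to -0.61 and -0.66 to -0.40 in the same order on birth day 1.

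**Figure D1:**
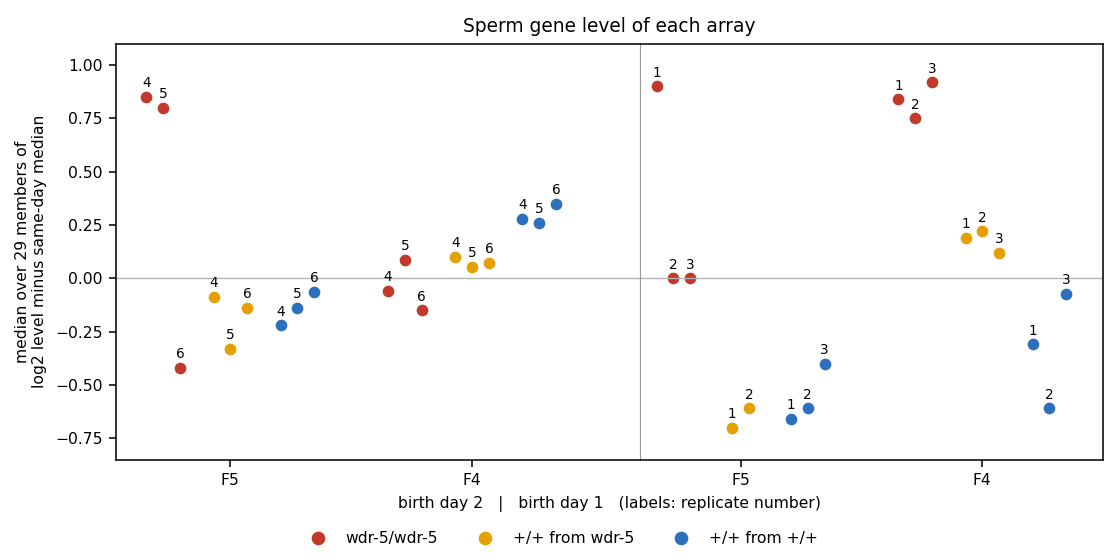
Median over the 29 sperm genes of the log2 level minus the same-day median, 1 point per array, with the replicate number beside it. Arrays of birth day 2 are left of the line and those of birth day 1 right of it, in F5 and F4, coloured by lineage. F5 mutant replicates 1, 4 and 5 sit between 0.80 and 0.90 and replicate 6 at -0.42, while the F4 mutants are the highest F4 group on birth day 1 (0.75 to 0.92) and lie below F4 +/+ from +/+ on birth day 2.

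By a simple measure of level, few members were dim. The files hold no detection call, so a level under the 25th percentile of its array (4.52 to 4.66 on birth day 2 against 3.71 to 3.95 on birth day 1) was counted as dim. The sperm activation gene spe-12 and the fertilization gene spe-38 were dim on 27 of the 35 arrays, msp-32 on 6, spe-19 on 4 and spe-8 on 3, and the other 24 members on none. Within a day the members spread unequally over the arrays: ssp-31 ranged over 2.17 on birth day 2 against 3.49 on birth day 1, msp-142 over 2.37 and 2.83, and spe-39 over 1.07 and 0.59. Major sperm protein genes are near-identical copies of each other, so a probe set of one can also bind RNA of others, and their values are not independent measurements. The reference annotation (WBcel235) holds 31 msp genes. It places msp-63 and msp-142 next to each other with 0 coding genes between them, msp-64 with 4 coding genes between it and msp-142, and msp-36 and msp-38 with 15 between them. The symbol in current use was that of the files for all 29 members.

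Sperm genes were higher in F5 mutants than in F5 +/+ from +/+. Over both birth days 25 of the 29 members were called higher and 0 lower, while 17.2% of the 18869 distinct probe sets were called higher and 15.3% lower. The calls covered 9 of 10 msp genes, 4 of 4 ssp genes and 12 of 15 spe genes. The median difference was 0.82 log2 over the members and -0.033 over all distinct probe sets, and by class it was 0.96 for msp, 1.03 for ssp and 0.37 for spe. Among the members not called were msp-32 at 0.089 ± 0.11, spe-19 at 0.20 ± 0.10 and spe-39 at 0.12 ± 0.12 (SE). All 29 differences were above 0.

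The major sperm protein genes are represented by msp-36, msp-63, msp-142 and msp-76. Levels of msp-36 were 13.18, 13.18 and 11.65 log2 in F5 mutants, 12.30, 11.85 and 11.35 in F5 +/+ from wdr-5 and 12.18, 12.15 and 12.14 in F5 +/+ from +/+ on birth day 2. For msp-36 the arrays of birth day 1 gave 13.15, 12.06 and 11.98 log2 in F5 mutants, against 11.13 and 11.24 in F5 +/+ from wdr-5 and 11.05, 11.36 and 11.41 in F5 +/+ from +/+. Mutant replicates 4 and 5 were above all other F5 arrays of birth day 2 and replicate 6 was below all 3 of +/+ from +/+, whereas the 3 mutants of birth day 1 were above both F5 wild-type lineages. Its difference from +/+ from +/+ was 0.82 ± 0.28 (SE, adjusted p = 0.0245). F5 mutants had 11.41, 11.43 and 9.50 log2 of msp-63 on birth day 2, F5 +/+ from wdr-5 had 9.92, 9.75 and 10.03 and F5 +/+ from +/+ had 9.90, 9.75 and 10.18. Levels of msp-63 were 11.64, 10.53 and 10.58 log2 in F5 mutants, 9.44 and 9.40 in F5 +/+ from wdr-5 and 9.24, 9.52 and 9.91 in F5 +/+ from +/+ on birth day 1. Its mutant replicate 6 was the lowest array of the generation and day, and on birth day 1 the mutants stood above both wild-type lineages, which overlapped each other. The difference of msp-63 was 1.10 ± 0.31 (SE, adjusted p = 0.0069), a 2.14-fold higher signal.

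For msp-142 the arrays of birth day 2 gave 10.70, 10.75 and 8.39 log2 in F5 mutants, against 9.15, 8.98 and 9.20 in F5 +/+ from wdr-5 and 9.05, 9.26 and 9.26 in F5 +/+ from +/+. F5 mutants had 10.21, 8.97 and 8.98 log2 of msp-142 on birth day 1, F5 +/+ from wdr-5 had 8.07 and 7.64 and F5 +/+ from +/+ had 8.17, 7.98 and 8.57. The neighbour of msp-63 had the same arrangement of arrays, with mutant replicates 4 and 5 on top and replicate 6 at the bottom on birth day 2. Its difference was 0.95 ± 0.37 (SE, adjusted p = 0.048). Levels of msp-76 were 11.71, 11.57 and 9.46 log2 in F5 mutants, 9.99, 9.91 and 9.86 in F5 +/+ from wdr-5 and 9.97, 10.25 and 10.11 in F5 +/+ from +/+ on birth day 2. For msp-76 the arrays of birth day 1 gave 11.31, 10.60 and 10.65 log2 in F5 mutants, against 9.45 and 9.50 in F5 +/+ from wdr-5 and 9.49, 9.79 and 10.23 in F5 +/+ from +/+. Again replicate 6 was lowest and the mutants of birth day 1 stood above every other F5 array. The difference of msp-76 was 0.91 ± 0.32 (SE, adjusted p = 0.0272). Among the msp genes the smallest p belonged to msp-74, at 1.04 ± 0.25 (SE, adjusted p = 0.00193), and the called msp genes ran between 0.82 (msp-36) and 1.10 (msp-50 and msp-63).

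The ssp genes included the member that differed most. F5 mutants had 8.18, 8.23 and 6.56 log2 of ssp-31 on birth day 2, F5 +/+ from wdr-5 had 6.17, 6.19 and 6.35 and F5 +/+ from +/+ had 6.06, 6.16 and 6.18. Levels of ssp-31 were 7.90, 6.52 and 6.98 log2 in F5 mutants, 5.11 and 5.16 in F5 +/+ from wdr-5 and 5.11, 5.06 and 5.50 in F5 +/+ from +/+ on birth day 1. All 6 mutant arrays, replicate 6 included, were above every F5 wild-type array of their day. The difference of ssp-31 was 1.72 ± 0.31 (SE, adjusted p = 1.29e-04), which is 3.29-fold. For ssp-19 the arrays of birth day 2 gave 6.62, 6.67 and 4.74 log2 in F5 mutants, against 4.85, 4.78 and 4.93 in F5 +/+ from wdr-5 and 4.92, 4.84 and 4.95 in F5 +/+ from +/+. F5 mutants had 6.84, 5.49 and 5.50 log2 of ssp-19 on birth day 1, F5 +/+ from wdr-5 had 4.61 and 4.77 and F5 +/+ from +/+ had 4.59, 4.77 and 4.85. Both wild-type lineages stayed under 5 log2 on both days while 5 of the 6 mutant arrays were above it. The difference of ssp-19 was 1.16 ± 0.31 (SE, adjusted p = 0.00535). Levels of ssp-16 were 9.42, 9.52 and 8.21 log2 in F5 mutants, 8.65, 8.31 and 8.39 in F5 +/+ from wdr-5 and 8.46, 8.45 and 8.41 in F5 +/+ from +/+ on birth day 2. For ssp-16 the arrays of birth day 1 gave 9.39, 8.70 and 8.71 log2 in F5 mutants, against 7.78 and 7.69 in F5 +/+ from wdr-5 and 7.72, 7.88 and 7.82 in F5 +/+ from +/+. Here replicate 6 was again the lowest F5 array of birth day 2. The difference of ssp-16 was 0.87 ± 0.19 (SE, adjusted p = 0.00109), and that of ssp-10 was 0.90 ± 0.34 (SE, adjusted p = 0.0422).

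Among spe genes that act in spermatocytes, where organelles and fibrous bodies form and spermatids bud, 5 of 7 were called higher, with a median of 0.38. The presenilin-family gene spe-4 is needed for the fibrous body complexes. F5 mutants had 8.35, 8.42 and 7.56 log2 of spe-4 on birth day 2, F5 +/+ from wdr-5 had 7.83, 7.59 and 7.84 and F5 +/+ from +/+ had 7.68, 7.83 and 7.97. Levels of spe-4 were 8.05, 7.76 and 7.79 log2 in F5 mutants, 7.04 and 7.45 in F5 +/+ from wdr-5 and 7.37, 7.19 and 7.62 in F5 +/+ from +/+ on birth day 1. Replicate 6 was the lowest F5 array on birth day 2, and on birth day 1 the mutants stood above both wild-type lineages, which overlapped each other. The difference of spe-4 was 0.38 ± 0.13 (SE, adjusted p = 0.0261). The gene spe-15 encodes a class VI myosin that sorts organelles at budding. For spe-15 the arrays of birth day 2 gave 7.34, 7.36 and 6.46 log2 in F5 mutants, against 6.28, 6.34 and 6.41 in F5 +/+ from wdr-5 and 6.29, 6.47 and 6.34 in F5 +/+ from +/+. F5 mutants had 6.57, 6.55 and 6.43 log2 of spe-15 on birth day 1, F5 +/+ from wdr-5 had 5.73 and 6.17 and F5 +/+ from +/+ had 5.78, 5.83 and 6.17. Of the F5 mutants only replicate 6 reached into the range of +/+ from +/+. The difference of spe-15 was 0.64 ± 0.18 (SE, adjusted p = 0.00691). Of the casein kinase 1-like gene spe-6, which is needed to assemble major sperm protein into fibrous bodies, all 6 mutant arrays were above every same-day array of F5 +/+ from +/+, with a difference of 0.82 ± 0.16 (SE, adjusted p = 3.29e-04). The kelch-repeat gene spe-26 differed by 0.81 ± 0.21 (SE, adjusted p = 0.00364) and the palmitoyltransferase gene spe-10 by 0.37 ± 0.13 (SE, adjusted p = 0.0292).

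Sperm activation genes were called in 3 of 4 cases, with a median of 0.39. The gene spe-27 differed by 0.71 ± 0.18 (SE, adjusted p = 0.00355), the tyrosine kinase gene spe-8 by 0.46 ± 0.12 (SE, adjusted p = 0.00406) and the dim spe-12 by 0.32 ± 0.10 (SE, adjusted p = 0.0145). All 3 measured genes of the sperm surface that act at fertilization were called: the EGF-repeat gene spe-9 at 0.32 ± 0.11 (SE, adjusted p = 0.0236), the tetraspan gene spe-38 at 0.22 ± 0.086 (SE, adjusted p = 0.0499) and the TRP channel gene spe-41 at 0.37 ± 0.09 (SE, adjusted p = 0.00242). The paternal factor spe-11, which sperm deliver for the first divisions of the embryo, had the largest difference among spe genes. Levels of spe-11 were 7.70, 7.53 and 5.62 log2 in F5 mutants, 6.13, 5.72 and 6.03 in F5 +/+ from wdr-5 and 5.86, 5.67 and 6.08 in F5 +/+ from +/+ on birth day 2. For spe-11 the arrays of birth day 1 gave 8.10, 6.14 and 6.67 log2 in F5 mutants, against 5.74 and 5.23 in F5 +/+ from wdr-5 and 5.32, 5.64 and 5.64 in F5 +/+ from +/+. Mutant replicates 1, 4 and 5 were at least 7.53 log2 and replicate 6 was the lowest F5 array of its day. The difference of spe-11 was 1.26 ± 0.35 (SE, adjusted p = 0.00708).

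**Figure D2:**
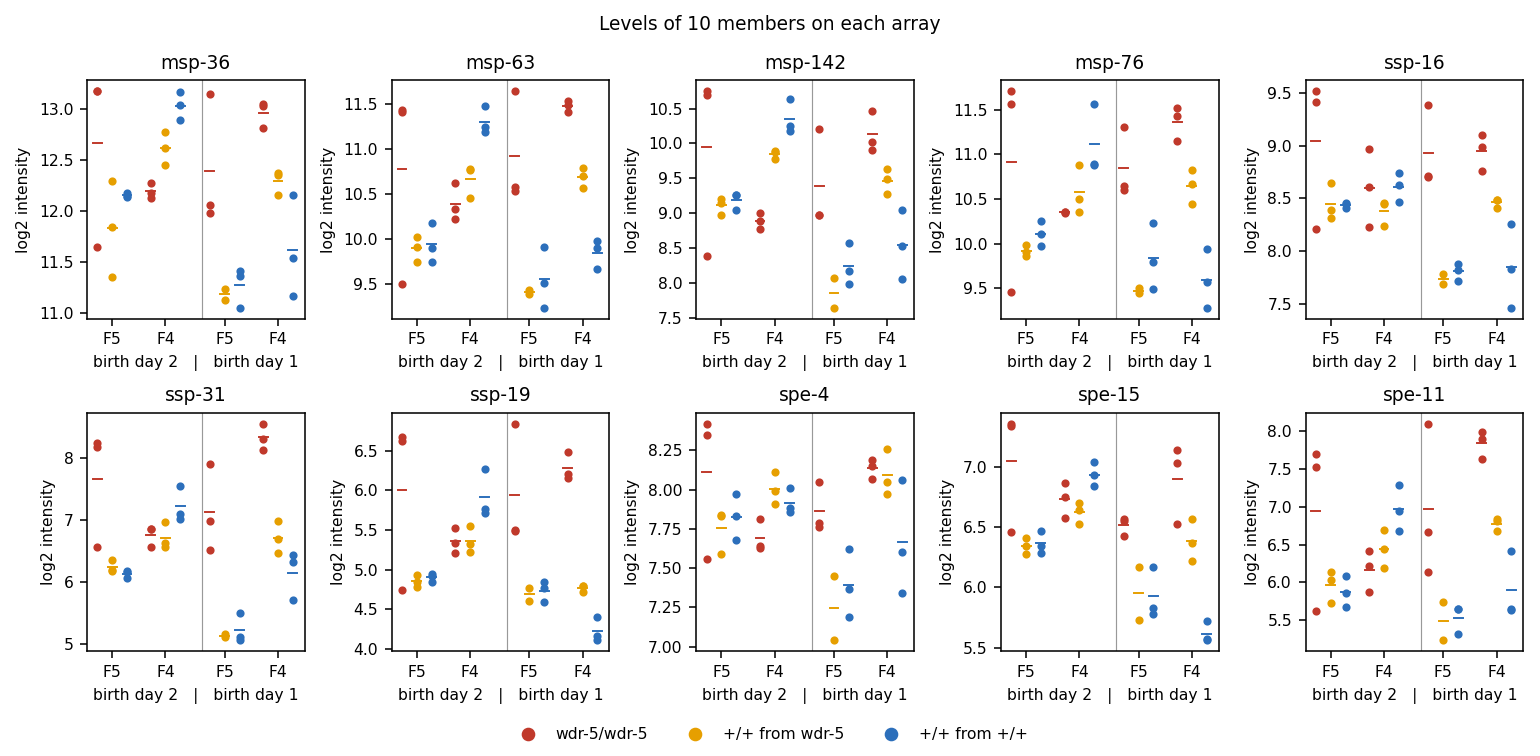
Log2 intensity of 10 sperm genes on each array, by birth day (day 2 left of the line, day 1 right of it), generation and lineage, with a bar at the mean of each group and day. F5 mutants hold a high and a low set of arrays, for example 11.41, 11.43 and 9.50 log2 of msp-63 on birth day 2, and by mean the F4 mutants are the lowest F4 group for msp-63 on birth day 2 and the highest on birth day 1.

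The counts for F5 mutants also held a direction within each day. Birth day 2 alone had 7 of 29 called higher and 0 lower (background 11.2% and 7.42%), namely msp-63, ssp-19, ssp-31, spe-6, spe-11, spe-15 and spe-27, with a median of 0.60. Birth day 1 alone had 24 called higher and 0 lower (background 13.1% and 11.6%), with a median of 1.08. The largest single-day differences were those of ssp-31, at 1.53 ± 0.30 (SE, adjusted p = 7.33e-04) on birth day 2 against 1.91 ± 0.30 (SE, adjusted p = 3.69e-05) on birth day 1. The arrays did not overlap for 5 of 29 members on birth day 2 (background 14.6%) and for 24 on birth day 1 (background 16.7%), and for spe-6 and ssp-31 on both days (background 8.53%). Only the birth day 1 count was far from its background share. The contrast of the day 2 and day 1 differences called 0 members (background 0.0424% higher and 0.0371% lower). An unadjusted limma p under 0.05 was found for 2 members and for 1655 of the 18869 distinct probe sets.

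These counts moved with single arrays. Over both days, 25 members became 16 without F5 mutant replicate 1, 18 without replicate 4, 17 without replicate 5 and 27 without replicate 6. For birth day 1 the count of 24 became 9 without replicate 1. The birth day 2 count of 7 became 24 without replicate 6, 12 without replicate 1, 2 without replicate 4 or replicate 5, 3 without F5 +/+ from +/+ replicate 5 and 4 without its replicate 4 or replicate 6. Leaving out the birth day term gave 11 over both days, and array weights gave 28 on birth day 2.

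Against F5 +/+ from wdr-5 the F5 mutants gave a like picture, and this comparison shares the mutant arrays with the one above. Over both days 24 of 29 members were called higher and 0 lower (background 15% and 14.6%), with a median of 0.87. The members of smallest p were ssp-31 at 1.68 ± 0.33 (SE, adjusted p = 3.52e-04), spe-6 at 0.82 ± 0.17 (SE, adjusted p = 6.48e-04), spe-41 at 0.43 ± 0.095 (SE, adjusted p = 0.00102) and msp-50 at 1.44 ± 0.33 (SE, adjusted p = 0.00163). The fertilization gene spe-38 differed by 0.31 ± 0.09 (SE, adjusted p = 0.00995). Those not called included msp-32, spe-10, spe-19 and spe-39. The day counts were 11 higher and 0 lower on birth day 2 (background 9.78% and 10.2%) and 24 higher and 0 lower on birth day 1 (background 11.6% and 8.18%). Arrays did not overlap for 6 members on birth day 2 (background 12.4%) and for 25 on birth day 1 (background 20.4%). The birth day 2 count was 26 without mutant replicate 6, 19 without replicate 1, 3 without replicate 4, 1 without replicate 5, and 5 or 7 without an array of +/+ from wdr-5 (5 without replicate 5 or 6, 7 without replicate 4). The count for birth day 1 was 9 without mutant replicate 1 and 11 or 14 without replicate 1 or 2 of +/+ from wdr-5.

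No sperm gene passed the test between F5 +/+ from wdr-5 and F5 +/+ from +/+. With limma 0 of 29 members were called over both days (background 0% in both directions), 0 had an unadjusted p under 0.05, and the median difference was -0.027, with the members between -0.34 and 0.066. The member of smallest p was msp-50 at -0.34 ± 0.33 (SE), with 1 as its adjusted p. It shares the +/+ from +/+ arrays with the comparison of the F5 mutants. Each day alone likewise called 0 (background 0% higher and 0% lower on birth day 2, 0.0053% and 0% on birth day 1), with 0 at an unadjusted p under 0.05 and medians of -0.05 on birth day 2 against -0.092 on birth day 1. The contrast between the days called 0 as well (background 0% higher and 0.0053% lower), with 0 at an unadjusted limma p under 0.05. Arrays of +/+ from wdr-5 lay below all of +/+ from +/+ for 3 members on birth day 2 (spe-12, spe-38 and spe-41, background 2.05%) and for 2 on birth day 1 (spe-6 and spe-39, background 9.7%), and above all of them for 0 on either day (background 5.45% and 6.47%). On birth day 2 spe-12 (4.37 to 4.41 against 4.43 to 4.45 log2) and spe-38 (4.22 to 4.29 against 4.30 to 4.33) were dim on all these arrays and differed little. A count of 0 does not show that the lineages are equal. The fit over both days used the same day term for all lineages of a generation. Lineage differences that changed with the day, as in F4, therefore entered its shared spread, as did the spread of the F5 mutants. The SE of this wild-type comparison can be too wide for that reason.

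In F4 mutants 27 of 29 differences from +/+ from +/+ were below 0 on birth day 2 and all 29 were above 0 on birth day 1, and the test called far more of them on birth day 1. The comparison of birth day 2 called 4 of 29 members lower and 0 higher (background 5.96% lower and 7.19% higher), with a median of -0.36 over the members and 0.0087 over all distinct probe sets. That of birth day 1 called 27 of 29 higher and 0 lower (background 15.7% higher and 20.9% lower), with a median of 1.26 against -0.078. The 27 took in all 10 msp genes, all 4 ssp genes and 13 of 15 spe genes. A direct test of the day 2 difference minus the day 1 difference called 27 members lower and 0 higher (background 15.1% lower and 17.5% higher), with a median of -1.49. It left out spe-9 at -0.13 ± 0.22 and spe-41 at -0.27 ± 0.18 (SE).

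The 4 members called lower in F4 mutants on birth day 2 were msp-142 at -1.47 ± 0.37 (SE, adjusted p = 0.00716), msp-63 at -0.91 ± 0.30 (SE, adjusted p = 0.0418), msp-32 at -0.36 ± 0.12 (SE, adjusted p = 0.0441) and spe-39 at -0.54 ± 0.13 (SE, adjusted p = 0.0058). The gene spe-39 acts in vesicle traffic of sperm and also of body tissues. In counts of arrays, 17 members of the F4 mutants lay below all +/+ from +/+ arrays on birth day 2 (background 15.7%), 9 of the 10 msp genes among them, and 29 of 29 lay above all of them on birth day 1 (background 19.2%). The birth day 2 count of 4 was 2 without F4 +/+ from +/+ replicate 4, 5 or 6 or F4 mutant replicate 4 or 6, 7 without F5 mutant replicate 4 and 11 without F5 mutant replicate 6, whose spread enters the shared estimate. It was 15 with array weights and 2 with birth day 2 fitted alone. Its birth day 1 counterpart stayed between 24 and 28 and the day contrast between 24 and 27 when any 1 of the 35 arrays was left out.

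F4 mutants had 12.18, 12.28 and 12.13 log2 of msp-36 on birth day 2, F4 +/+ from wdr-5 had 12.78, 12.45 and 12.62 and F4 +/+ from +/+ had 13.04, 12.90 and 13.17. Levels of msp-36 were 13.03, 12.82 and 13.05 log2 in F4 mutants, 12.38, 12.16 and 12.36 in F4 +/+ from wdr-5 and 11.54, 11.17 and 12.16 in F4 +/+ from +/+ on birth day 1. The 3 lineages kept apart on birth day 2 with the mutants lowest, and on birth day 1 the mutants were highest. Between the days the mutant difference of msp-36 moved by -2.19 ± 0.41 (SE, adjusted p = 2.28e-04). For msp-63 the arrays of birth day 2 gave 10.34, 10.62 and 10.22 log2 in F4 mutants, against 10.78, 10.46 and 10.77 in F4 +/+ from wdr-5 and 11.47, 11.24 and 11.19 in F4 +/+ from +/+. F4 mutants had 11.53, 11.41 and 11.49 log2 of msp-63 on birth day 1, F4 +/+ from wdr-5 had 10.70, 10.79 and 10.57 and F4 +/+ from +/+ had 9.98, 9.67 and 9.90. Mutants and +/+ from wdr-5 overlapped on birth day 2, both below +/+ from +/+, and all 3 lineages were apart on birth day 1. The day contrast of msp-63 was -2.54 ± 0.43 (SE, adjusted p = 8.20e-05).

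Levels of msp-142 were 9.0, 8.89 and 8.77 log2 in F4 mutants, 9.89, 9.78 and 9.88 in F4 +/+ from wdr-5 and 10.64, 10.18 and 10.25 in F4 +/+ from +/+ on birth day 2. For msp-142 the arrays of birth day 1 gave 10.47, 9.91 and 10.02 log2 in F4 mutants, against 9.63, 9.49 and 9.27 in F4 +/+ from wdr-5 and 8.53, 8.06 and 9.05 in F4 +/+ from +/+. Its lineages did not overlap on either day, and they stood in opposite orders. The mutant difference was -1.47 on birth day 2 against 1.59 on birth day 1, with a contrast of -3.05 ± 0.52 (SE, adjusted p = 1.03e-04), the largest of the 29. F4 mutants had 10.35, 10.34 and 10.36 log2 of msp-76 on birth day 2, F4 +/+ from wdr-5 had 10.88, 10.50 and 10.36 and F4 +/+ from +/+ had 11.57, 10.88 and 10.89. Levels of msp-76 were 11.43, 11.15 and 11.52 log2 in F4 mutants, 10.83, 10.44 and 10.67 in F4 +/+ from wdr-5 and 9.94, 9.28 and 9.57 in F4 +/+ from +/+ on birth day 1. The msp-76 mutants were the highest F4 arrays of birth day 1, and on birth day 2 they were nearly equal to each other and no F4 array was clearly below them. Its contrast was -2.53 ± 0.47 (SE, adjusted p = 1.94e-04).

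For ssp-31 the arrays of birth day 2 gave 6.57, 6.86 and 6.86 log2 in F4 mutants, against 6.96, 6.63 and 6.56 in F4 +/+ from wdr-5 and 7.55, 7.1 and 7.01 in F4 +/+ from +/+. F4 mutants had 8.55, 8.12 and 8.31 log2 of ssp-31 on birth day 1, F4 +/+ from wdr-5 had 6.98, 6.69 and 6.47 and F4 +/+ from +/+ had 6.32, 5.71 and 6.43. On birth day 2 the mutants overlapped +/+ from wdr-5 and lay below +/+ from +/+, and on birth day 1 they were more than 1 log2 above every other F4 array. The birth day 1 difference of ssp-31 was 2.17 ± 0.30 (SE, adjusted p = 6.17e-06), a 4.51-fold higher signal, and its contrast between the days was -2.63 ± 0.42 (SE, adjusted p = 5.81e-05). Levels of ssp-19 were 5.21, 5.52 and 5.34 log2 in F4 mutants, 5.55, 5.22 and 5.33 in F4 +/+ from wdr-5 and 6.27, 5.77 and 5.71 in F4 +/+ from +/+ on birth day 2. For ssp-19 the arrays of birth day 1 gave 6.21, 6.16 and 6.48 log2 in F4 mutants, against 4.80, 4.80 and 4.72 in F4 +/+ from wdr-5 and 4.40, 4.11 and 4.16 in F4 +/+ from +/+. As for ssp-31, mutants overlapped +/+ from wdr-5 on birth day 2, below +/+ from +/+, and stood above both on birth day 1. Its birth day 1 difference was 2.06 ± 0.31 (SE, adjusted p = 1.84e-05) and its contrast -2.62 ± 0.44 (SE, adjusted p = 8.39e-05). F4 mutants had 8.61, 8.97 and 8.23 log2 of ssp-16 on birth day 2, F4 +/+ from wdr-5 had 8.46, 8.24 and 8.45 and F4 +/+ from +/+ had 8.63, 8.47 and 8.74. Levels of ssp-16 were 8.99, 8.76 and 9.10 log2 in F4 mutants, 8.49, 8.41 and 8.49 in F4 +/+ from wdr-5 and 7.83, 7.46 and 8.26 in F4 +/+ from +/+ on birth day 1. For ssp-16 the lineages overlapped on birth day 2 and were apart on birth day 1, and its contrast was -1.11 ± 0.33 (SE, adjusted p = 0.01).

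The median contrast between the days in F4 mutants was -0.69 for spe, -2.30 for msp and -2.59 for ssp, and the classes were not tested against each other. For spe-15 the arrays of birth day 2 gave 6.75, 6.87 and 6.58 log2 in F4 mutants, against 6.70, 6.53 and 6.64 in F4 +/+ from wdr-5 and 6.84, 6.93 and 7.04 in F4 +/+ from +/+. F4 mutants had 7.03, 6.53 and 7.14 log2 of spe-15 on birth day 1, F4 +/+ from wdr-5 had 6.37, 6.57 and 6.22 and F4 +/+ from +/+ had 5.56, 5.57 and 5.72. The mutants overlapped +/+ from +/+ on birth day 2 and stood above all 3 of its arrays on birth day 1. The birth day 1 difference of spe-15 was 1.29 ± 0.17 (SE, adjusted p = 3.80e-06) and its contrast -1.49 ± 0.24 (SE, adjusted p = 5.97e-05). Levels of spe-11 were 6.21, 6.41 and 5.87 log2 in F4 mutants, 6.69, 6.19 and 6.44 in F4 +/+ from wdr-5 and 7.29, 6.68 and 6.95 in F4 +/+ from +/+ on birth day 2. For spe-11 the arrays of birth day 1 gave 7.99, 7.63 and 7.90 log2 in F4 mutants, against 6.84, 6.68 and 6.81 in F4 +/+ from wdr-5 and 5.65, 5.63 and 6.42 in F4 +/+ from +/+. The 3 lineages were apart on birth day 1, with mutants on top, and mutants were below +/+ from +/+ on birth day 2. The birth day 1 difference of spe-11 was 1.94 ± 0.38 (SE, adjusted p = 2.79e-04) and its contrast -2.75 ± 0.53 (SE, adjusted p = 3.27e-04). F4 mutants had 7.63, 7.81 and 7.64 log2 of spe-4 on birth day 2, F4 +/+ from wdr-5 had 8.11, 7.91 and 7.99 and F4 +/+ from +/+ had 7.86, 7.88 and 8.01. Levels of spe-4 were 8.19, 8.07 and 8.15 log2 in F4 mutants, 8.05, 8.26 and 7.97 in F4 +/+ from wdr-5 and 7.60, 7.34 and 8.06 in F4 +/+ from +/+ on birth day 1. For spe-4 the wild-type lineages overlapped on birth day 2, and the lowest mutant array of birth day 1 (8.07) was barely above the highest of +/+ from +/+ (8.06). Its contrast was -0.69 ± 0.24 (SE, adjusted p = 0.0297).

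Other spe genes of the spermatocyte rose on birth day 1 as well, spe-6 by 1.22 ± 0.16 (SE, adjusted p = 4.13e-06), spe-26 by 1.26 ± 0.22 (SE, adjusted p = 9.46e-05) and spe-10 by 0.72 ± 0.16 (SE, adjusted p = 0.00104). On birth day 2 the same 3 genes differed by 0.15 ± 0.16, -0.23 ± 0.22 and -0.015 ± 0.16 (SE), none of them called. All 4 activation genes were called on birth day 1, with a median of 0.55, and limma called 0 of 4 on birth day 2, 0 of them at an unadjusted p under 0.05. Of the 3 fertilization genes 2 were called on birth day 1, among them spe-38 at 0.48 ± 0.10 (SE, adjusted p = 7.44e-04), and 0 on birth day 2, where 1 had an unadjusted limma p under 0.05. On birth day 2 so had 4627 of the 18869 distinct probe sets.

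**Figure D3:**
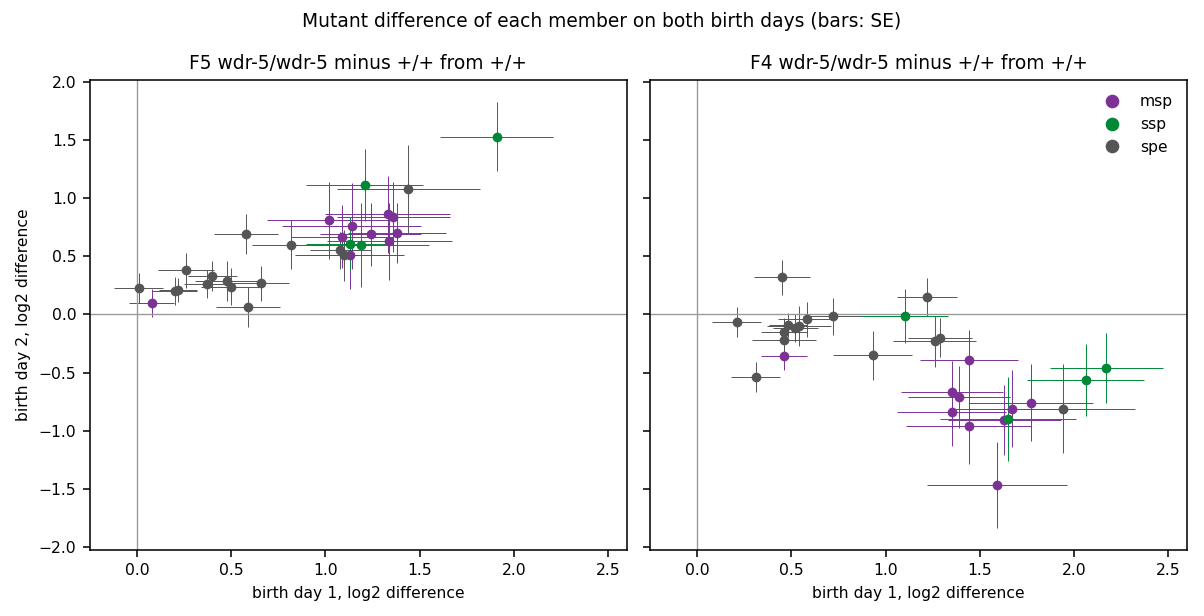
Mutant difference from +/+ from +/+ of each of the 29 sperm genes on birth day 2 (y axis, log2) against birth day 1 (x axis, log2), F5 left and F4 right, with bars of 1 SE. In F5 all genes lie above 0 on both days, and in F4 all lie above 0 on birth day 1 and 27 of 29 below 0 on birth day 2.

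Averaged over both days, few F4 mutant differences passed the test. With limma 3 of 29 members were called higher and 0 lower (background 4.83% higher and 5.28% lower), which were spe-6 at 0.69 ± 0.16 (SE, adjusted p = 0.0058), spe-9 at 0.39 ± 0.11 (SE, adjusted p = 0.0187) and spe-15 at 0.54 ± 0.18 (SE, adjusted p = 0.0473). Levels of spe-6 had a lowest, median and highest value of 5.66, 5.78 and 5.99 log2 in F4 mutants and of 4.23, 5.18 and 5.80 in F4 +/+ from +/+, and these ranges overlapped. The median over the members was 0.34. The count was 1 without F4 mutant replicate 2 or F4 +/+ from +/+ replicate 2, 5 without F4 mutant replicate 4, 6 without F4 +/+ from +/+ replicate 4, and 7 without F4 mutant replicate 6 or F5 mutant replicate 6. This mean takes in the 27 differences whose sign was opposite on the days. Whether the mutant difference was larger in F5 than in F4 was tested over both days, where limma called 0 members (background 0.0106% higher and 0% lower). Of the 18869 distinct probe sets 2582 had an unadjusted p under 0.05, and 1 member had. That member was spe-41, with an F5 difference of 0.37 against 0.07 in F4 and a contrast of 0.30 ± 0.13 (SE, adjusted p = 0.284). The median contrast was 0.32, and with array weights 14 members were called.

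By mean level, F4 +/+ from wdr-5 lay between the other F4 lineages for 20 of 29 sperm genes with mutants lowest on birth day 2, and for 29 of 29 with mutants highest on birth day 1. Against F4 +/+ from +/+ its median difference was -0.23 on birth day 2 against 0.55 on birth day 1, and the comparison shares the +/+ from +/+ arrays with that of the mutants. Birth day 2 gave 0 calls (background 0.17% higher and 0.0636% lower). An unadjusted limma p under 0.05 was found for 1 member and for 1607 of the 18869 distinct probe sets. The member was msp-63 at -0.63 ± 0.30 (SE, adjusted p = 0.552). The myosin gene spe-15 alone was called on birth day 1, at 0.77 ± 0.17 (SE, adjusted p = 0.0294) (background 0.249% higher and 0.498% lower). That day 16 members had an unadjusted limma p under 0.05, as had 3624 of the 18869 distinct probe sets. Levels of spe-15 were 6.37, 6.57 and 6.22 log2 in +/+ from wdr-5 and 5.56, 5.57 and 5.72 in +/+ from +/+ that day, without overlap. Arrays of +/+ from wdr-5 lay below all of +/+ from +/+ for 14 members on birth day 2 (background 7.99%) and above all of them for 20 on birth day 1 (background 9.13%). The contrast between the days called spe-15 alone, at -1.08 ± 0.24 (SE, adjusted p = 0.0201) (background 0.959% higher and 0.869% lower). In it 17 members had an unadjusted limma p under 0.05, as had 3970 of the 18869 distinct probe sets.

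These F4 +/+ from wdr-5 counts depended on F5 mutant replicate 6 through the shared spread. Without it 9 members were called on birth day 1 and 15 in the contrast between the days. The birth day 1 count was 3 without F4 +/+ from +/+ replicate 3 and 0 without replicate 1 or 2 of either wild-type lineage. The call of spe-15 was also lost with quantile normalization (adjusted p = 0.0936, limma) and with birth day 1 fitted alone (adjusted p = 0.0914), while array weights gave 21 calls on birth day 1 and 21 between the days. The contrast count was 4, 2 and 3 without F5 mutant replicates 1, 4 and 5, and 0 without F4 +/+ from wdr-5 replicate 5 or F4 +/+ from +/+ replicate 2, 4 or 6. Over both days limma called 0 members (background 0% in both directions), 0 had an unadjusted p under 0.05, and the median difference was 0.13.

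F4 mutants set directly against F4 +/+ from wdr-5 were higher on birth day 1 for 8 members and lower for 0 (background 8.62% and 5.79%). These were ssp-31 at 1.61 ± 0.30 (SE, adjusted p = 5.59e-04), ssp-19 at 1.51 ± 0.31 (SE, adjusted p = 0.0016), spe-6 at 0.85 ± 0.16 (SE, adjusted p = 7.92e-04), spe-38 at 0.37 ± 0.10 (SE, adjusted p = 0.016), spe-19 at 0.41 ± 0.12 (SE, adjusted p = 0.0221), spe-26 at 0.73 ± 0.22 (SE, adjusted p = 0.026), spe-12 at 0.38 ± 0.12 (SE, adjusted p = 0.0304) and spe-15 at 0.52 ± 0.17 (SE, adjusted p = 0.0399). No msp gene was among them, and 9 of the 10 had an unadjusted limma p under 0.05. So had 5325 of the 18869 distinct probe sets. For birth day 2 limma called 0 members (background 4.04% higher and 3.03% lower), and 3 had an unadjusted p under 0.05, as had 3534 of the 18869 distinct probe sets. The 3 were msp-32 at -0.32 ± 0.12, msp-142 at -0.96 ± 0.37 and spe-39 at -0.28 ± 0.13 (SE). The day contrast called ssp-31 at -1.57 ± 0.42 (SE, adjusted p = 0.0438) and msp-32 at -0.63 ± 0.17 (SE, adjusted p = 0.0453) (background 0.996% higher and 1.31% lower), and over both days spe-6 alone was called, at 0.56 ± 0.16 (SE, adjusted p = 0.0198) (background 5.9% higher and 5.54% lower). Its birth day 1 count was 22 without F5 mutant replicate 6, 13 without its replicate 1, and 4 without F4 mutant replicate 1 or 3 or F4 +/+ from wdr-5 replicate 1 or 3. The day contrast was 16 without F5 mutant replicate 6, 5 without its replicate 1, and 0 or 1 without any of 26 other arrays. The birth day 2 count was 1 without F5 mutant replicate 6. The count over both days was 2 without F4 mutant replicate 4 or 6 or F5 mutant replicate 6, and 0 without F4 mutant replicate 1 or 3 or F4 +/+ from wdr-5 replicate 6. Mutant arrays lay below all of +/+ from wdr-5 for 9 members on birth day 2 (background 13.7%) and above all of them for 24 on birth day 1 (background 17.2%).

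**Figure D4:**
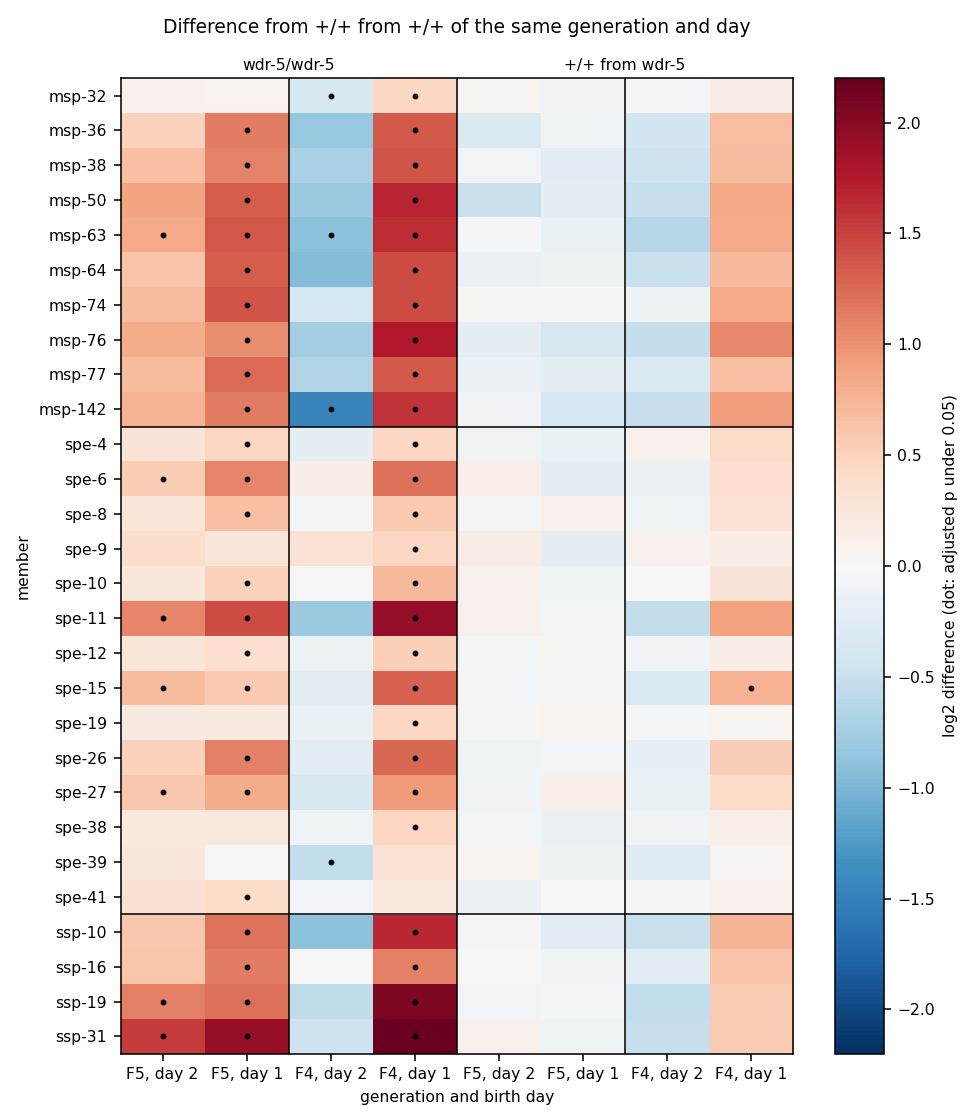
Log2 difference of 28 of the 29 sperm genes (rows) from +/+ from +/+ of the same generation and birth day (columns), for mutants left and +/+ from wdr-5 right. Red is higher, blue is lower and a dot marks an adjusted p under 0.05: F4 mutants have 4 dots on birth day 2, all on blue cells, and +/+ from wdr-5 has 1, for spe-15 in F4 on birth day 1.

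Where the wild-type lineages differed by test between the generations, the sperm genes were lower in F5 than in F4, except for msp-32 in +/+ from +/+ on birth day 1. Generation and time of culture cannot be told apart here. In +/+ from wdr-5, 2 of 29 members were called lower in F5 on birth day 2 (background 0.848%) and 22 on birth day 1 (background 8.15%), with median F5 minus F4 differences of -0.26 and -0.84. Examples on birth day 1 were msp-74 at -1.45 ± 0.29 (SE, adjusted p = 5.21e-04) and msp-142 at -1.61 ± 0.41 (SE, adjusted p = 0.00436). In +/+ from +/+, 15 were called lower on birth day 2 (background 7.64%), among them 9 of 10 msp genes, and on birth day 1 5 were lower and msp-32 was higher (background 4.59% and 17.1%). The difference of msp-63 in +/+ from +/+ was -1.35 ± 0.30 (SE, adjusted p = 0.00245) on birth day 2 against -0.29 ± 0.30 (SE, adjusted p = 0.514) on birth day 1.

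In mutants all 29 F5 minus F4 differences were below 0 on birth day 1, and 26 were above 0 on birth day 2. Their F5 minus F4 median was 0.42 on birth day 2, with 6 members called higher in F5 (background 8.22%), and -0.51 on birth day 1, with 8 called lower (background 8.43%). The TRP channel gene spe-41 was higher in F5 mutants by 0.55 ± 0.13 (SE, adjusted p = 0.00343) on birth day 2, and spe-19 was lower in them on birth day 1, at -0.81 ± 0.12 (SE, adjusted p = 1.21e-05). Without F5 mutant replicate 6 the birth day 2 count was 23, and without replicate 4 or 5 it was 1. It was 2 without F4 mutant replicate 4 and 3 without any of 14 other arrays. The birth day 1 count was 23 without replicate 1 and 20 without replicate 6 of the F5 mutants, 3 without their replicate 2 or 3, and 4 without F4 mutant replicate 3. In +/+ from wdr-5 the birth day 1 count of 22 became 12 and 10 without F5 replicates 1 and 2, and the birth day 2 count of 2 became 8 without F5 mutant replicate 6, 1 without F4 replicate 5 and 0 without F4 replicate 4 or 6 or F5 replicate 5 or 6. In +/+ from +/+ the birth day 2 count of 15 became 3 and 6 without F4 replicates 4 and 6 and 7, 6 and 5 without F5 replicates 4, 5 and 6, and the birth day 1 count of 6 became 3 without F5 replicate 2 or F4 replicate 1 or 3. Array weights gave 24 calls in mutants on each day and 11 in +/+ from wdr-5 on birth day 2. Quantile normalization over all arrays moved the median of all probe sets by -0.103 in mutants and -0.101 in +/+ from wdr-5 in the birth day 1 contrast of F5 and F4.

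By mean level in F5 the mutants were highest for 29 of 29 members on both days, and the wild-type lineages below them, which did not differ by test, were in the order +/+ from +/+ over +/+ from wdr-5 for 19 members on birth day 2 against 21 on birth day 1. In F4, neighbours in the order mostly did not differ by test, with 0 calls at both steps on birth day 2 and with 8 calls between mutants and +/+ from wdr-5 and 1 between +/+ from wdr-5 and +/+ from +/+ on birth day 1.

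Spermatogenesis genes outside the symbol classes were read from a list of 41 genes, of which 29 were measured. In F5 mutants 16 of the 29 were higher and 2 lower than in +/+ from +/+ over both days (background 17.2% and 15.3%), with a median of 0.85. They included the histone H2A variant gene htas-1 (1.32 ± 0.32, SE), the sperm phosphatase gene gsp-4 (1.09 ± 0.32) and ssq-2 (1.20 ± 0.35), and the lower ones were cpb-1, a translational regulator of spermatocytes (-0.19 ± 0.068), and elt-1 (-0.16 ± 0.059). In F4 mutants 3 were higher and 8 lower on birth day 2 (median -0.61, background 7.19% and 5.96%) and 22 were higher and 1 lower on birth day 1 (median 1.60, background 15.7% and 20.9%). The 3 that were higher on birth day 2 were nspd-8 and the regulators fog-1 (1.14 ± 0.18, SE) and fog-3 (1.60 ± 0.22), which set germ cells on the sperm fate. On birth day 1 these 2 regulators were not called, at fog-1 -0.14 ± 0.18 and fog-3 -0.46 ± 0.22 (SE). The gene cpb-1 was lower in F4 mutants on both days, by -0.28 ± 0.09 on birth day 2 against -0.53 ± 0.09 on birth day 1 (SE). The 18 further genes that carry an msd, ssp or spe symbol only in the current annotation, a list made after values were seen and sharing msd-2 and msd-4 with the list above, had 6 higher in F5 mutants over both days, and 5 lower on birth day 2 and 14 higher on birth day 1 in F4 mutants, to be read beside the same background shares.

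By the median of each list, markers of oocytes, yolk and germ cells moved with the sperm genes. Of 15 measured oocyte and eggshell genes 14 were higher and 1 (lin-41) lower in F5 mutants over both days (median 1.40), and in F4 mutants 11 were lower on birth day 2 (median -1.18) and 14 higher on birth day 1 (median 1.80). The background shares apply to this list and those below. For F5 mutants over both days they were 17.2% higher and 15.3% lower. For F4 mutants they were 7.19% higher and 5.96% lower on birth day 2, and 15.7% and 20.9% on birth day 1. Their summed intensity on birth day 2 was 3085 to 13176 in F5 mutants and 2214 to 2754 in F5 +/+ from +/+, and 2520 to 5994 in F4 mutants and 7020 to 11942 in F4 +/+ from +/+. On birth day 1 the sums were 3060 to 10552 and 1835 to 2091 in the F5 groups in that order, and 8997 to 13245 and 2637 to 3536 in the F4 groups. In both generations and on both days the group with the higher oocyte sums was the one whose sperm genes were higher by median. Single arrays could part from this. On birth day 2 the sperm gene sums were 11656 to 38541 in F5 mutants and 16070 to 16853 in F5 +/+ from +/+, with the lowest in a mutant. The oocyte sums of these groups did not overlap that day, nor did the germ cell sums (5121 to 6268 against 4204 to 4386). None of these 15 genes was dim on all arrays. Their part in the result was not tested.

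All 6 yolk genes were higher in F5 mutants (median 1.99). In F4 mutants 1 of 6 was lower on birth day 2 (median -1.84) and 3 were higher on birth day 1 (median 1.80). Yolk sums were 5091 to 18850 in F5 mutants and 811 to 5803 in F5 +/+ from +/+ on birth day 2, and 1714 to 11476 in F4 mutants and 9913 to 20747 in F4 +/+ from +/+. On birth day 1 they were 1816 to 15712 and 888 to 2788 in F5, and 10988 to 18401 and 2990 to 5149 in F4, mutants before +/+ from +/+. Of the 12 germ cell genes 10 were higher in F5 mutants (median 0.38), and 6 were lower on birth day 2 (median -0.38) and 9 higher on birth day 1 (median 0.42) in F4 mutants. The germ cell sums were 5121 to 6268 in F5 mutants and 4204 to 4386 in F5 +/+ from +/+, and 4399 to 5090 in F4 mutants and 5370 to 5908 in F4 +/+ from +/+, on birth day 2, and 4205 to 5817 and 3604 to 3808, and 4901 to 5126 and 3451 to 4085, on birth day 1. The 4 adult cuticle genes differed in sign among themselves. Their median was -0.22 in F5 mutants, with 1 higher and 1 lower, and in F4 mutants it was -0.59 on birth day 2, with 1 higher and 1 lower, while on birth day 1 it was 0.091, with 1 higher. The collagen gene col-19 had a difference of 2.30 ± 0.65 in F5 mutants, and of -3.08 ± 0.61 on birth day 2 against 2.54 ± 0.61 on birth day 1 in F4 mutants (SE). Of the others bli-1 was lower in F5 mutants (-0.58 ± 0.20) and rol-6 higher in F4 mutants on birth day 2 (0.89 ± 0.16), while rol-6 (-0.18 ± 0.14) and bli-2 (-0.27 ± 0.19) were not called in F5 mutants over both days (SE). The part of the yolk and germ cell markers in the result was not tested.

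Moulting genes ran the other way. In F5 mutants 7 of 7 were lower (median -0.55), and in F4 mutants 4 were higher on birth day 2 (median 0.58) and 5 lower on birth day 1 (median -0.42). Their summed intensity was 3488 to 4790 in F5 mutants and 6410 to 6704 in F5 +/+ from +/+ on birth day 2, and 5183 to 6186 in F4 mutants and 3266 to 4734 in F4 +/+ from +/+. On birth day 1 it was 3137 to 4052 and 5085 to 5511 in F5 and 2772 to 3065 and 3930 to 4029 in F4. Their part in the result was not tested. 

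Among 8 male markers 2 were called higher and 0 lower in F5 mutants over both days, where the background was 17.2% and 15.3%. Of these genes of male neurons and seminal fluid, cwp-2 and the seminal protease gene try-5 were dim on all 35 arrays, and the list's median difference was 0.022 in F5 mutants, and -0.0088 on birth day 2 against -0.071 on birth day 1 in F4 mutants. Over both days swm-1 (0.36 ± 0.084) and the dim try-5 (0.15 ± 0.06) were higher in F5 mutants, and cwp-4 (-0.21 ± 0.07) was lower in F4 mutants (SE). Within the days swm-1 (0.38 ± 0.11) was higher and cwp-4 (-0.24 ± 0.085) lower in F5 mutants on birth day 2, swm-1 (0.35 ± 0.11) and try-5 (0.29 ± 0.078) were higher in them on birth day 1, and cwp-4 (-0.38 ± 0.085) and lov-1 (-0.33 ± 0.087) were lower in F4 mutants on birth day 1 (SE). The F4 means behind these birth day 1 calls were dim. They were 3.32 in mutants and 3.70 in +/+ from +/+ for cwp-4, and 3.37 and 3.70 for lov-1. The 25th percentile that day was 3.71 to 3.95. Of 13 genes that choose between sperm and oocyte fate, fog-2 alone was called in F5 mutants over both days (0.74 ± 0.18, SE), against the same background of 17.2% and 15.3%. Within the days fog-2 and puf-8 (0.41 ± 0.14) were higher in F5 mutants on birth day 2, and fog-2, her-1 (0.52 ± 0.14) and nos-3 (0.53 ± 0.15) on birth day 1 (SE). The background for F5 mutants was 11.2% higher and 7.42% lower on birth day 2, and 13.1% and 11.6% on birth day 1. In F4 mutants gld-1 (-0.52 ± 0.14), puf-8 (-0.48 ± 0.14), fem-3 (-0.60 ± 0.14) and fem-2 (-0.31 ± 0.11) were lower on birth day 2, and fog-2 (0.88 ± 0.18), gld-1 (0.43 ± 0.14) and puf-8 (0.42 ± 0.14) were higher and tra-1 (-0.25 ± 0.082) lower on birth day 1 (SE). Of 3 somatic gonad genes fkh-6 and ipp-5 were lower in F5 mutants (-0.35 ± 0.10 and -0.79 ± 0.10, SE) and in F4 mutants (-0.43 ± 0.10 and -0.41 ± 0.10, SE) over both days, and the third gene of the list was not called. The background of lower calls over both days was 15.3% in F5 mutants and 5.28% in F4 mutants.

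**Figure D5:**
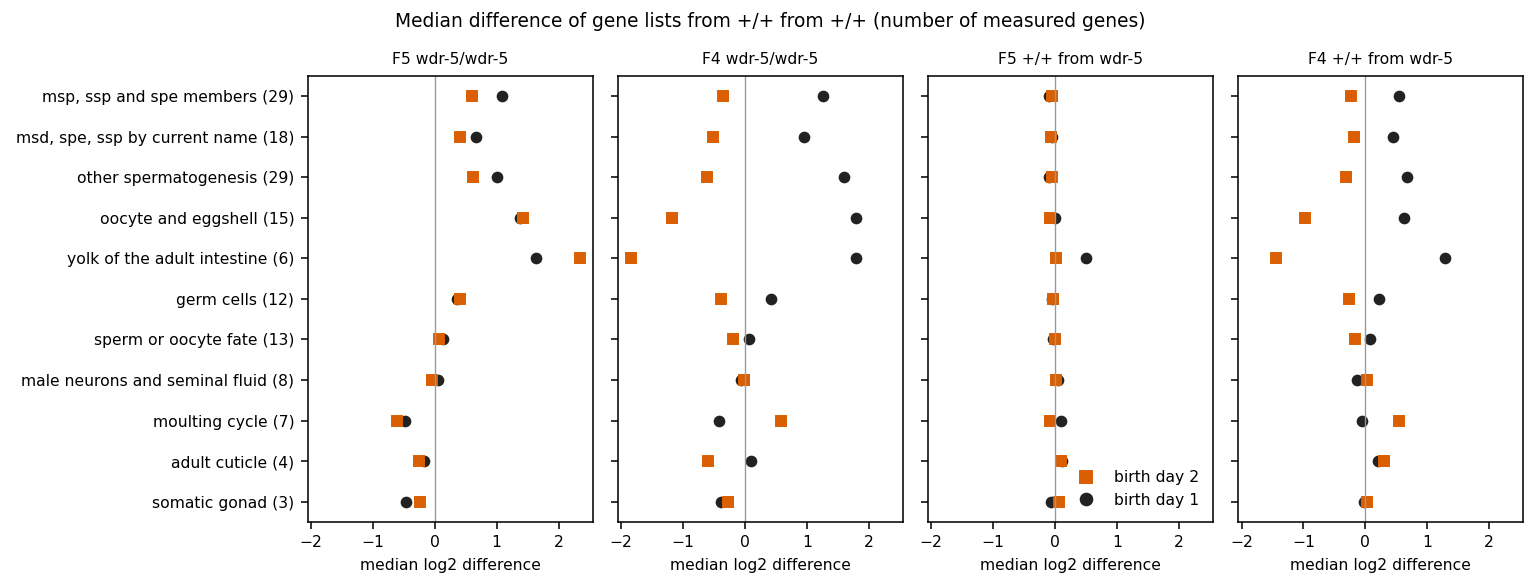
Median log2 difference from +/+ from +/+ of each gene list, with the number of genes measured, for mutants of F5 and F4 and for +/+ from wdr-5 of F5 and F4. Squares are birth day 2 and circles birth day 1: in F4 mutants the sperm genes lie at -0.36 and 1.26, oocyte and yolk genes lie further out on the same sides, and moulting genes lie on the opposite sides.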

How the data were processed

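Single-colour arrays measured total RNA of whole L3 larvae on 35 arrays in 6 groups. The deposited values are log2 intensities per probe set that the authors had normalized with RMA, per the submitters' processing notes. They came in a table for each birth day (18 arrays on birth day 2 and 17 on birth day 1). The base of 2 rests on the span of the values. The RMA version and its settings are not given in the sources used here. No detection calls were used, and the number of arrays limits the precision.

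Groups and birth days were taken from the labels. With 77 control probe sets left out, 20806 probe sets were fitted with limma 3.58.1 in R 4.3.3 (lmFit, then eBayes with an intensity trend). Birth day within generation was a term in a fit over both days, and a second fit gave each group and day its own mean. Tests were two-sided, with Benjamini-Hochberg adjustment over all probe sets and a threshold of 0.05 on the adjusted p. Members and background shares were counted over the 18869 distinct profiles. Tables were written with Python 3.11.15 and pandas 2.3.3, and the fit was tested on simulated data.

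The members and all gene lists (other spermatogenesis, oocyte and eggshell, yolk of the adult intestine, germ cells, sperm or oocyte fate, male neurons and seminal fluid, adult cuticle, moulting cycle, somatic gonad, and genes that carry such names only in the current annotation) were chosen with earlier results of these data known. Any member may be named, since all were counted, but 1 member that enters the counts is not reported by itself here. Values on every array are given for the member of highest mean in each symbol class and for those of smallest p for the difference between days in F4 mutants and F4 +/+ from wdr-5, up to 2 of each class. In each comparison up to 4 called msp or ssp genes and 6 called spe genes of smallest p, and where none was called those of smallest p, were to be named, and further members are named to complete a class. Current names were read from the WBcel235 annotation, in which 25 members were found by accession.

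The alternatives were quantile normalization over all arrays, leaving out probe sets with a mean under the 25th percentile, no intensity trend, 1 probe set per distinct profile, array weights, the replicate number as a block, no birth day term, each birth day fitted alone, and each array left out in turn. Sequences were not used here.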

Additional observations from a re-analysis of the deposited data

Results flagged for a closer look

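The difference of F4 mutants from F4 +/+ from +/+ was not the same on the birth days. A test of the day 2 difference minus the day 1 difference called 27 of 29 sperm genes, all in the negative direction. The same test called 1 member, spe-15, for F4 +/+ from wdr-5 against F4 +/+ from +/+, and 2 members, ssp-31 and msp-32, for F4 mutants against F4 +/+ from wdr-5.

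In F4 +/+ from wdr-5, 1 array was flagged as apart from the others of its group for ssp-16. Replicate 5, of birth day 2, had 8.24 log2, while the other 5 arrays had 8.41 to 8.49, so that its gap to the nearest array was 0.647 of the range of the group. It was the only one of 66 tested sets of arrays to stand out in this way. Chance gives about 1 in 20, so 1 of 66 is below the share that chance gives. Each set pooled both birth days, which had been normalized apart.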

How the results depend on the processing

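Of the counts of members called under the alternatives other than leaving out an array, 185 stayed within 1.5 times the value in the report and 31 did not. The cause was not tested. Without a birth day term, the counts over both days were 11 for F5 mutants against +/+ from +/+, 12 for F5 mutants against +/+ from wdr-5, 0 for F4 mutants against +/+ from +/+ and 0 for F4 mutants against +/+ from wdr-5. With array weights they were 14 for the F5 difference of mutants minus the F4 difference, 28 for F5 mutants against +/+ from +/+ and 27 against +/+ from wdr-5 on birth day 2, and 15 for F4 mutants against +/+ from +/+ on birth day 2. Array weights also gave 4 on birth day 2, 21 on birth day 1 and 21 between the days for F4 +/+ from wdr-5 against +/+ from +/+. For F4 mutants against +/+ from wdr-5 they gave 1, 20 and 19 in that order, and for F5 against F4 they gave 24 in mutants on birth day 2, 24 in mutants on birth day 1 and 11 in +/+ from wdr-5 on birth day 2. With each birth day fitted alone the counts were 2 for F4 mutants against +/+ from +/+ on birth day 2, 0 for F4 +/+ from wdr-5 against +/+ from +/+ on birth day 1, and 0 for F5 against F4 in +/+ from wdr-5 on birth day 2. Quantile normalization gave 0 for F4 +/+ from wdr-5 against +/+ from +/+ on birth day 1, and 1 on birth day 2, 4 on birth day 1 and 1 between the days for F4 mutants against +/+ from wdr-5.

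The main fits did not pair arrays by replicate number. Over 34 pairs of same-numbered arrays the correlation of deviations from the group and day means had a lowest, median and highest value of -0.295, 0.0326 and 0.317, with 11 pairs over 0.1. In F4 the pairs of replicates 2 and 3 lay between 0.152 and 0.302, so the median does not describe every set of arrays. With the replicate block the count was 0 for F4 mutants against +/+ from wdr-5 between the days. For F5 against F4 in mutants the replicate block gave 0 on birth day 2 and 3 on birth day 1. In the same order it gave 0 and 10 in +/+ from wdr-5, and 0 and 1 in +/+ from +/+. The block was set within each generation and day, so F5 and F4 shared no replicate. These F5 against F4 counts therefore compare fitted levels at a single replicate number, not group means. They cannot show how the reported F5 against F4 counts depend on pairing.

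Leaving out each of the 35 arrays in turn moved 126 counts by over 1.5 times and left 994 within it. Over both days the counts were 16 to 27 for F5 mutants against +/+ from +/+, 20 to 26 for F5 mutants against +/+ from wdr-5, 1 to 7 for F4 mutants against +/+ from +/+ and 0 to 2 for F4 mutants against +/+ from wdr-5. On birth day 2 they were 2 to 24, 1 to 26, 2 to 11 and 0 to 1 for the same comparisons, and on birth day 1 9 to 25, 9 to 25, 24 to 28 and 4 to 22. For F4 +/+ from wdr-5 against +/+ from +/+ they were 0 to 9 on birth day 1 and 0 to 15 between the days, and for F4 mutants they were 24 to 27 against +/+ from +/+ and 0 to 16 against +/+ from wdr-5 between the days. For F5 against F4 they were, for birth day 2 and then birth day 1, 1 to 23 and 3 to 23 in mutants, 0 to 8 and 10 to 23 in +/+ from wdr-5, and 3 to 17 and 3 to 9 in +/+ from +/+. Of the values of named members, 4825 kept direction and side of the threshold, 265 no longer passed it, 5 newly passed it and 1 changed sign: spe-15 in F4 +/+ from wdr-5 against +/+ from +/+ over both days, which was -0.0062 with array weights.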
